A study of Mus musculus with 30 samples.

Results

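The transcripts of 10 cytokine genes that stromal and tumor cells make for leukocytes were examined across 5 MCA-induced mouse fibrosarcoma lines: Il6, Lif, Il11, Il15, Il18, Il33, Tslp, Csf1, Csf2 and Csf3. They were chosen by gene symbol and not by a cut on their level, but with earlier results of these data known. Each matched 1 of the 48440 genes of the count table. All 10 passed the filter on low counts, as did 16862 genes in all. The data were bulk RNA sequencing of 30 tumors, grown in mice from lines that were each derived from the tumor of 1 animal injected with the carcinogen 3-methylcholanthrene (MCA), so that all tumors of a line share 1 parental tumor. NK1.1+ cells did not restrain MCA-943 (4 tumors) or MCA-969 (8 tumors) by the study's classification, in which these are the non-sensitive lines. Its sensitive lines gave 8 tumors for MCA-948, 6 for MCA-970 and 4 for MCA-972. The labels give the mouse strain as Ncr1Cre for MCA-943 and as Ncr1Cre R26DTA for the other 4 lines, a genotype in which Cre expressed from Ncr1 turns on diphtheria toxin in NKp46+ cells. Line MCA-943 and this strain label can therefore not be told apart. All tumors are labelled as grown in C57BL/6 mice, while the design text mentions hosts with and without NK cells, and neither host status nor age is given per tumor. The titles of all tumors but MCA-972 2G carry a letter, W or a, whose meaning is not stated. In MCA-969, W-1D and W-2D carry a label of sensitivity that is opposite to their line's.

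Cytokines are secreted proteins through which one cell changes the survival, growth or activity of another. Il6, Lif and Il11 belong to one family that signals through the shared receptor chain gp130, encoded by Il6st, and through STAT3. Il15, usually presented in trans on its receptor chain Il15ra, keeps NK cells and ILC1 alive, and Il18, an inflammasome-processed member of the interleukin 1 family, raises their interferon gamma output. Il33 and Tslp are alarmins of barrier and stromal cells that act on innate lymphoid cells, mast cells, dendritic cells and regulatory T cells. Csf1, Csf2 and Csf3 are the colony-stimulating factors for macrophages, for granulocytes and macrophages together, and for granulocytes.

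The gene counts of a tumor summed to between 27745104 and 46537062. Levels are given as CPM, the count of a gene scaled to the TMM-normalized library total, and differences between lines as log2 fold changes of 1 edgeR quasi-likelihood fit that held every tumor. To be called, a difference had to reach a log2 fold change of 1 in size and stay below 0.05 in p after Benjamini-Hochberg adjustment over the 16862 genes. Each tumor counted as 1 sample of its line, so that p-values measure the spread among tumors grown from 1 parental line. Hematopoietic cells had been removed with CD45 beads, and Ptprc, which encodes CD45, lay between 0.402 and 25.1 CPM and the macrophage gene Adgre1 between 0.155 and 17.2 CPM. The 10 fibroblast lineage genes examined were all detected in every line. Library numbers in the column headers fell into 3 ranges, termed runs here although the headers do not call them so. Their sample indices would group some libraries otherwise. By index MCA-969 W-2G and W-R would join the run of MCA-970, which would divide MCA-969 by the letter of its titles. All results by run used the library numbers, and the grouping by index was not tried. The ranges followed the lines: MCA-943 shared a run only with MCA-948, and MCA-972 only with MCA-969. In bulk RNA, fewer cells of a type and less RNA per cell cannot be told apart, so a level here belongs to the CD45-depleted tumor suspension and not to a cell type.

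The 10 cytokines differed widely between lines. Of their 100 differences over the 10 pairs of lines, 63 were called, where 17.6% to 29.4% of all genes were called in a pair. MCA-948 was the low line: it had the lowest mean of 9 of the 10 cytokines, and of the 40 differences between it and another line 30 were called lower in MCA-948 and 1, Csf3 against MCA-943, higher. Against MCA-948, 9 cytokines were called in MCA-943, where 29.0% of all genes were called, 8 in MCA-969 (20.8% of all genes), 9 in MCA-970 (29.4%) and 5 in MCA-972 (26.8%). In these 4 comparisons the median log2 fold change of the 10 cytokines was 2.01, 2.88, -2.07 and -1.38, the last 2 with MCA-948 as the first line, and the median over all genes lay between -0.05 and 0.04. The summed level of the 10 fibroblast lineage genes was also low in MCA-948, between 15042 and 21577 CPM, against 17859.7 to 38235 CPM in MCA-969, 42306 to 51457 CPM in MCA-970, 41682 to 51420 CPM in MCA-972 and 66919.6 to 78786 CPM in MCA-943. Its part in the cytokine differences was not tested. The highest mean was in MCA-943 for Il15, Il18, Il33 and Csf1, in MCA-969 for Il11, Tslp, Csf2 and Csf3, and in MCA-970 for Il6 and Lif.

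**Figure D1:**
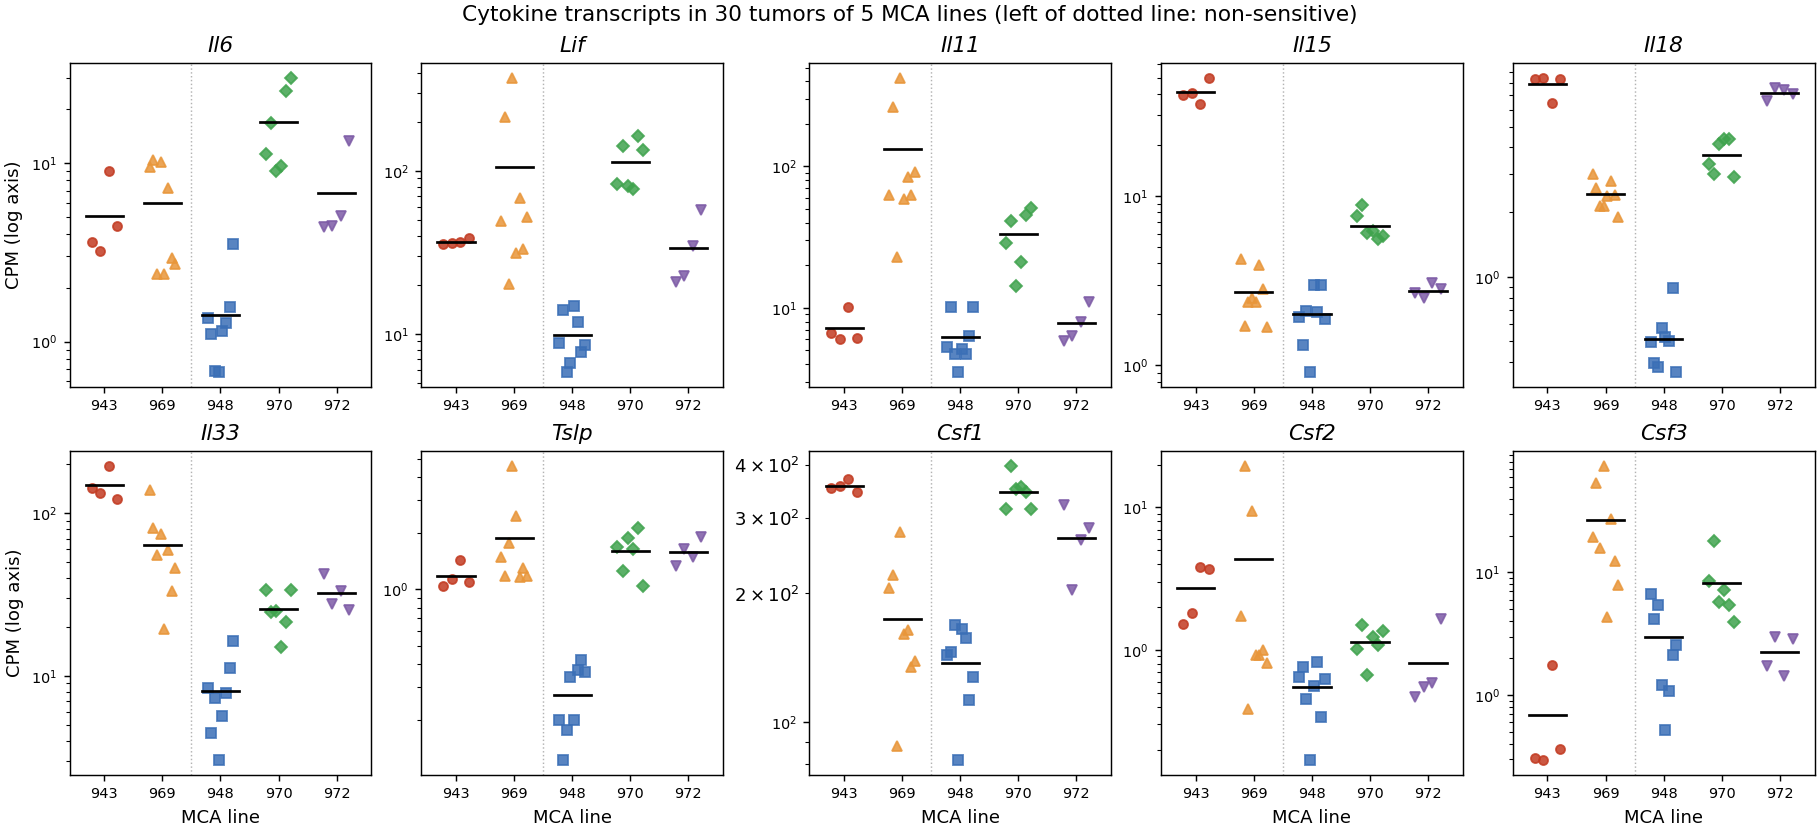
Level of each cytokine in CPM on a log axis, with 1 point per tumor, a black bar at the line mean, and the non-sensitive lines left of the dotted line. MCA-948 (squares) lies lowest in most panels, Il15 stands apart in MCA-943 at 34.9 to 49.9 CPM, and 2 MCA-969 tumors lie far above the others of their line in Lif, Il11 and Csf2.

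**Figure D2:**
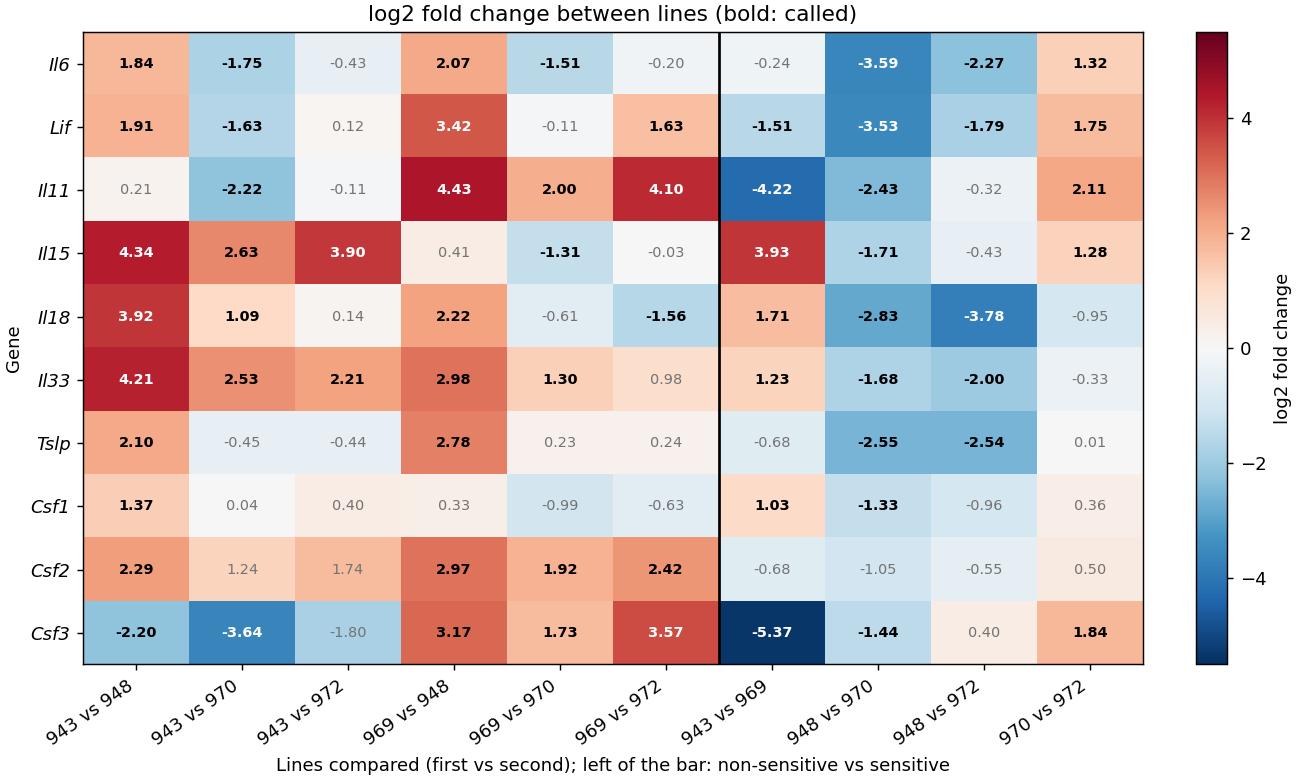
Log2 fold change of each cytokine (rows) in the 10 pairs of lines (columns), red where the first line is higher and blue where the second is, with called differences in bold black or white. The 6 columns left of the bar set a non-sensitive against a sensitive line, and no row is bold with 1 sign in all 6.

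Among the NK cell factors, Il15 (chr8:82331632-82403222, minus strand, GRCm38) marked MCA-943. Its level was 39.5 CPM in tumor W-2G, 40.8 in a-1D, 34.9 in a-1G and 49.9 in a-R of MCA-943. In MCA-970 it lay between 5.59 and 8.87 CPM with a median of 6.15. All MCA-943 tumors thus lay above all tumors of the other lines, and the MCA-970 tumors above those of the remaining 3 lines. In MCA-969 the lowest, median and highest values were 1.68, 2.43 and 4.25 CPM, in MCA-948 they were 0.912, 1.996 and 2.997 CPM, and the 4 MCA-972 tumors had 2.48, 2.66, 2.81 and 3.06 CPM. These 3 lines overlapped and no difference among them was called. Il15 was higher in MCA-943 than in MCA-970 by 2.63 ± 0.24 (SE) on the log2 scale, with an adjusted p of 1.7e-10 by edgeR, and by 3.90 to 4.34 over the other 3 lines. These 4 differences were called under every alternative setting, with ranges of 2.52 to 2.98 against MCA-970 and 3.80 to 4.48 against the others. They include the other non-sensitive line, where the difference was 3.93 ± 0.23 (SE, adjusted p = 1.2e-14). The summed level of 8 pan-leukocyte genes was also highest in MCA-943, at 326 to 422 CPM against 202 to 306 CPM in the other lines, a sum carried mostly by Arhgdib, at a mean of 302 CPM in MCA-943 and 211 to 266 CPM elsewhere. Ptprc lay between 2.94 and 25.1 CPM in MCA-943. The 10 NK cell and ILC1 genes summed to 5.82 to 45.6 CPM in MCA-943, 0.585 to 5.26 in MCA-969, 2.78 to 15.6 in MCA-948, 0.389 to 30.5 in MCA-970 and 0.791 to 3.07 in MCA-972. Of the 8 pan-leukocyte genes, 7, 5, 2 and 2 were called higher in MCA-943 than in MCA-969, MCA-948, MCA-970 and MCA-972. Of the 10 NK cell and ILC1 genes, 10, 6, 1 and 10 were, in the same order. No gene of either list was called lower in MCA-943, and 27.0%, 29.0%, 27.3% and 25.6% of all genes were called in these pairs. The 8 T cell genes summed to 21.2 to 29.03 CPM in MCA-943, of which Trbc2 alone made up a mean of 21.7 CPM, while Cd3e averaged 0.416 CPM there and at most 0.0473 CPM in any other line. The sum in MCA-969 overlapped this, at 9.33 to 26.6 CPM. It was 0.365 to 0.873 CPM in MCA-948, 0.956 to 2.67 CPM in MCA-970 and 4.69 to 8.44 CPM in MCA-972. The part of leukocytes in the Il15 level was not tested beyond a fit with a leukocyte score as covariate, in which the 4 Il15 differences were called. MCA-970 differed from MCA-972 in Il15 by 1.28 ± 0.26 (SE, adjusted p = 0.00016), a call lost at an adjusted p of 0.052 with the run as covariate.

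The receptor chain Il15ra, which presents Il15 to NK cells, followed a different order of lines. Il15ra averaged 14.8 ± 4.45 CPM (SD, n = 4) in MCA-943, 9.70 ± 2.06 (SD, n = 8) in MCA-969, 4.01 ± 1.43 (SD, n = 8) in MCA-948, 4.02 ± 0.578 (SD, n = 6) in MCA-970 and 4.84 ± 1.31 (SD, n = 4) in MCA-972. Of 18 receptor chains of these cytokines, only Il15ra was called with 1 sign whenever a non-sensitive line was set against a sensitive one, 6 comparisons in all. Among all genes 0.878% were called so. The log2 fold changes of Il15ra ran from 1.00 for MCA-969 against MCA-972 to 1.88 for MCA-943 against MCA-948. MCA-969 thus had Il15ra above the sensitive lines at an Il15 level below that of MCA-970, where Il15 was higher by 1.31 ± 0.21 on the log2 scale (SE, adjusted p = 3.4e-06). The Il15ra difference of 1.00 from MCA-972 lies at the fold required and was not tried under the alternative settings. The highest MCA-969 tumors in Il15ra were W-2D at 13.7 CPM and W-1D at 11.6 CPM, both labelled sensitive.

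**Figure D3:**
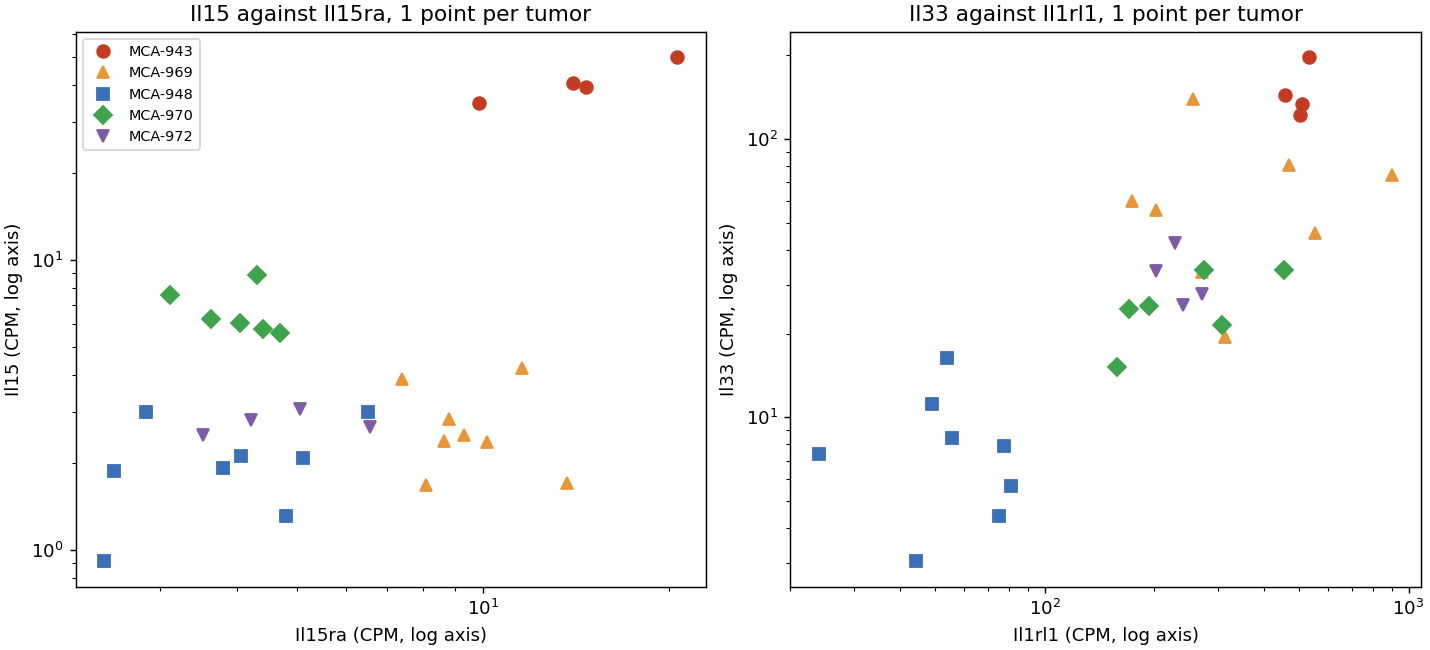
Cytokine level (vertical) against receptor chain level (horizontal), both in CPM on log axes, with 1 point per tumor: Il15 with Il15ra on the left, Il33 with Il1rl1 on the right. MCA-943 is high in both genes of both pairs, MCA-969 is high in Il15ra with low Il15, and MCA-948 is low in both genes of the right panel.

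Il18 (chr9:50554827-50581840, plus strand) split the lines differently. It measured 8.37, 8.43, 6.42 and 8.30 CPM in MCA-943 tumors W-2G, a-1D, a-1G and a-R, and 6.59, 7.53, 7.38 and 7.10 CPM in MCA-972 tumors 2G, a-1, a-1G and a-R. The 2 lines overlapped and differed by 0.14 ± 0.19 (SE, adjusted p = 0.55, 95% interval -0.25 to 0.53). MCA-970 had a lowest, median and highest value of 2.90, 3.76 and 4.38 CPM, MCA-969 of 1.89, 2.39 and 3.02 CPM, and MCA-948 of 0.360, 0.502 and 0.886 CPM, so that the MCA-948 tumors lay below all others. Il18 was lower in MCA-948 than in every other line by 2.22 to 3.92 on the log2 scale, the smallest of these with an adjusted p of 6.3e-13, and this held in all alternative settings. A non-sensitive line was thus at the level of a sensitive one, and MCA-969 lay below MCA-972 by 1.56 ± 0.16 (SE, adjusted p = 3.5e-09). MCA-970 lay below MCA-972 by 0.95, and by 1.00, called, without MCA-970 a-1D or a-2D. Il18 shares part of its locus with Bco2 and Tex12 on the other strand, and because the strand setting of the counting is not stated, their reads cannot be told apart where they overlap. These neighbours had at most 91 counts in a tumor, against 11 to 342 for Il18. Il18bp, the secreted decoy that binds Il18, was 10.04 ± 3.94 CPM (SD, n = 4) in MCA-943 and had means between 1.39 and 2.08 CPM in the other lines, below MCA-943 by 2.27 to 2.85 on the log2 scale (adjusted p at most 3.3e-09). Il18r1, the ligand-binding receptor chain, had means between 0.198 and 0.899 CPM.

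Of the alarmins, Il33 (chr19:29925114-29960718, plus strand) came closest to separating the sensitivity classes. MCA-943 tumors W-2G, a-1D, a-1G and a-R had 144, 134, 196 and 122 CPM. The MCA-969 tumors had a lowest value of 19.5, a median of 57.7 and a highest of 139 CPM. In the sensitive lines the lowest, median and highest values were 3.04, 7.63 and 16.3 CPM in MCA-948, 15.2, 24.9 and 33.97 CPM in MCA-970, and 25.3, 30.7 and 42.2 CPM in MCA-972. MCA-943 lay above all sensitive tumors, whereas MCA-969 overlapped MCA-970 and MCA-972. Of the 6 comparisons between classes, 5 had Il33 called higher on the non-sensitive side, with log2 fold changes from 1.30 ± 0.33 (SE, adjusted p = 0.0013) over MCA-970 in MCA-969 to 4.21 ± 0.36 (SE, adjusted p = 4.1e-11) over MCA-948 in MCA-943. In the remaining comparison, MCA-969 against MCA-972, it was 0.98 ± 0.38 (SE, adjusted p = 0.031), below the fold required. This value was 1.01, 1.12, 1.06 and 1.04 without MCA-969 W-2G, a-1D, a-2D or a-R, and 1.14 without MCA-972 2G, each called, so that Il33 then joined all 6. Without the 2 MCA-969 tumors labelled sensitive, MCA-969 against MCA-970 fell to 0.90 and was not called. MCA-943 also exceeded MCA-969 by 1.23 ± 0.35 (SE, adjusted p = 0.0032). Il1rl1, which encodes the Il33 receptor ST2, was 501 ± 32.1 CPM (SD, n = 4) in MCA-943, 393 ± 244 (SD, n = 8) in MCA-969, 57.4 ± 19.3 (SD, n = 8) in MCA-948, 260.0 ± 113 (SD, n = 6) in MCA-970 and 235 ± 28.1 (SD, n = 4) in MCA-972. It was lower in MCA-948 than in each other line by 2.03 to 3.12 on the log2 scale, and neither comparison of MCA-969 with MCA-970 or MCA-972 was called (0.60 and 0.74).

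Tslp, an epithelial and stromal cytokine that activates dendritic cells, had low counts, from 4 to 151 per tumor. Its lowest, median and highest values were 0.122, 0.269 and 0.417 CPM in MCA-948 and 1.17, 1.40 and 4.59 CPM in MCA-969. It measured 1.05, 1.13, 1.44 and 1.10 CPM in MCA-943 tumors W-2G, a-1D, a-1G and a-R, 1.04 to 2.14 CPM in MCA-970 and 1.33 to 1.92 CPM in MCA-972. All MCA-948 tumors lay below all others, and Tslp was lower in MCA-948 by 2.10 to 2.78 on the log2 scale, with an adjusted p of at most 2.2e-06. No other difference in Tslp was called. With the run as covariate the difference from MCA-972 was -1.39 with an adjusted p of 0.082. The 8 keratinocyte genes, which mark a cell type known for Tslp, summed to 1.69 to 10.1 CPM over the 30 tumors. Within lines, deviations of Tslp correlated at r = 0.642 with those of the fibroblast lineage genes and at 0.359 with those of the keratinocyte genes, over 30 tumors that share library and depth, and the part of either cell type was not tested.

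In the gp130 family, Il6 (chr5:30013114-30019981, plus strand), the inflammatory member that acts on T cells, B cells and the liver, was highest in a sensitive line. The lowest, median and highest values were 8.98, 13.9 and 29.9 CPM in MCA-970, 2.38, 5.07 and 10.4 CPM in MCA-969, and 0.676, 1.21 and 3.53 CPM in MCA-948. It was 3.59, 3.23, 8.95 and 4.46 CPM in MCA-943 tumors W-2G, a-1D, a-1G and a-R, and 4.38, 4.42, 5.06 and 13.3 CPM in MCA-972 tumors 2G, a-1, a-1G and a-R. The range of MCA-970 was reached by 3 MCA-969 tumors (W-1D, W-2D and W-R) and by MCA-972 a-R, and by no tumor of MCA-943 or MCA-948. Il6 was higher in MCA-970 than in MCA-943 by 1.75 ± 0.52 (SE, adjusted p = 0.0052) and than in MCA-969 by 1.51 ± 0.41 (SE, adjusted p = 0.0022). With the run as covariate these were 0.48 and 0.77 and were not called, and within the run that holds both MCA-969 and MCA-970 the difference was 0.77 with an adjusted p of 0.24. The 1.32 between MCA-970 and MCA-972 (adjusted p = 0.034) was lost without MCA-972 a-1, a-1G or 2G or MCA-970 a-2D or a-2G, at 1.16, 1.2, 1.16, 1.17 and 1.08, and was 0.21 with an adjusted p of 0.85 with the run as covariate. All 4 lines exceeded MCA-948, by 1.84 to 3.59, with adjusted p-values of at most 0.0013. The 9 endothelial genes summed to 280 to 561 CPM in MCA-970, 25.0 to 406 CPM in MCA-948 and 57.0 to 229 CPM in the other 3 lines, and their part in the Il6 difference was not tested.

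Lif (chr11:4257557-4272514, plus strand), which holds stem cells undifferentiated and acts on macrophages in tumors, was nearly constant in MCA-943 and widely spread in MCA-969. MCA-943 tumors W-2G, a-1D, a-1G and a-R had 35.4, 36.1, 36.8 and 38.7 CPM. In MCA-969, W-R had 372 CPM and W-2D 213 CPM, while the other 6 tumors lay between 20.2 and 68.2 CPM. The lowest, median and highest values were 77.1, 109 and 163 CPM in MCA-970 and 5.82, 8.66 and 14.9 CPM in MCA-948, and MCA-972 tumors 2G, a-1, a-1G and a-R had 20.7, 22.6, 34.4 and 57.4 CPM. Lif was lower in MCA-948 than in each other line by 1.79 to 3.53, with no overlap of tumors. The higher level in MCA-969 than in MCA-943 (1.51 ± 0.57, SE, adjusted p = 0.022) and in MCA-969 than in MCA-972 (1.63 ± 0.57, SE, adjusted p = 0.017) rested on MCA-969 W-R: without it they were 0.86 and 0.98 and not called. The first call was also lost without MCA-943 W-2G (1.47) or a-1D (1.49), and the second without MCA-972 a-1 (1.48) or 2G (1.46). Without MCA-969 W-R and W-2D together, a choice made after seeing the data, Lif was higher in MCA-970 than in MCA-969 by 1.42, with an adjusted p of 0.000134, where it was 0.11 with them. The difference between MCA-970 and MCA-972, 1.75 ± 0.59 (SE, adjusted p = 0.016), was lost without MCA-972 a-1 (1.6) or 2G (1.58), and with the run as covariate (1.3, adjusted p = 0.32).

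Il11 (chr7:4772373-4782859, minus strand), a stromal cytokine tied to fibroblast activation and platelet formation, was the most line-specific of the family. MCA-969 W-R had 424 CPM and W-2D 263 CPM, and the other MCA-969 tumors 23.03 to 90.9 CPM. MCA-970 had a lowest, median and highest value of 14.2, 34.98 and 50.7 CPM. The remaining 3 lines lay far lower, at 6.02 to 10.1 CPM in MCA-943, 3.51 to 10.1 CPM in MCA-948 and 5.78 to 10.99 CPM in MCA-972, and none of the differences among them was called. Il11 was higher in MCA-969 than in MCA-943 by 4.22 ± 0.63, than in MCA-948 by 4.43 ± 0.47 and than in MCA-972 by 4.10 ± 0.62 (SE; adjusted p at most 2.6e-06), and without W-R and W-2D these were still 3.15, 3.36 and 3.04 and called. The difference from MCA-970 was 2.00 ± 0.46 (SE, adjusted p = 0.0005) and 0.93, under the fold required, without these 2 tumors.

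**Figure D4:**
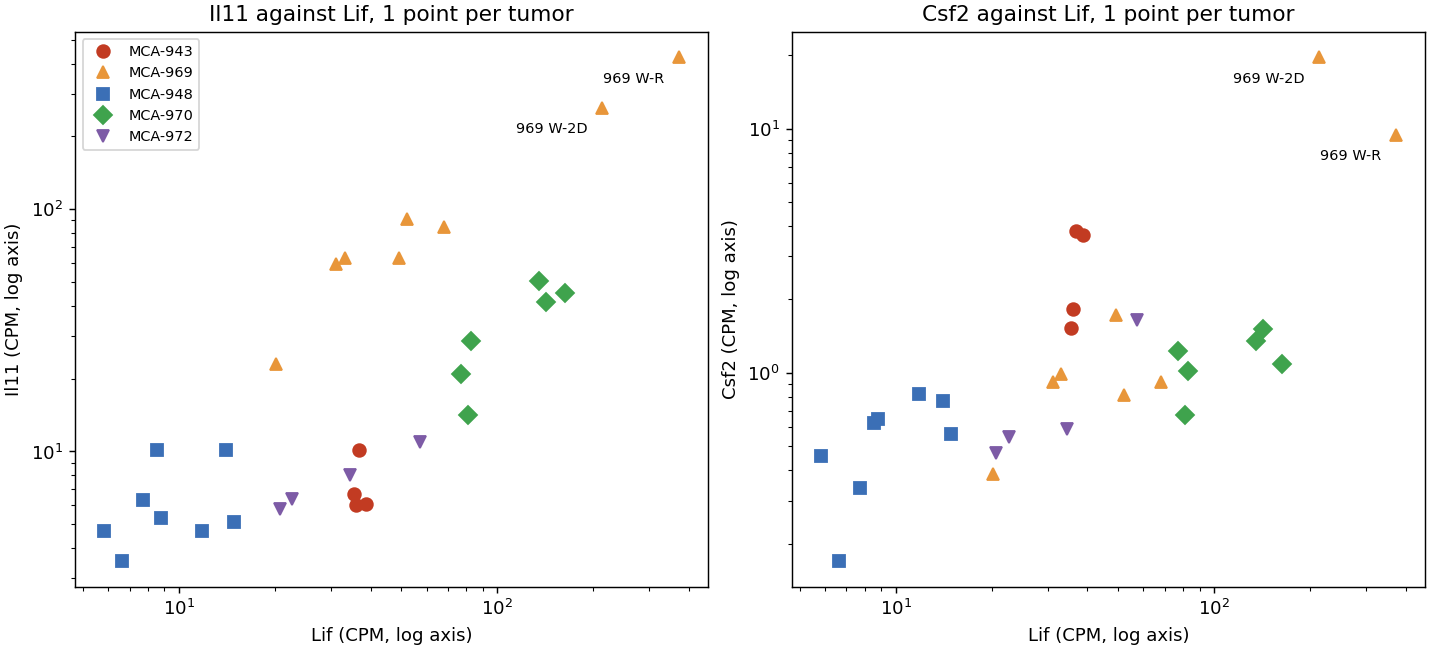
Il11 (left) and Csf2 (right) against Lif in CPM on log axes, with 1 point per tumor and the line given by color and shape. MCA-969 W-R and W-2D lie at the upper right of both panels, and the other tumors of MCA-969 and those of MCA-970 rise together in Lif and Il11.

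Csf1 (chr3:107741048-107760469, minus strand), the growth factor of macrophages, had the highest mean CPM of the 10 in every line and was called in the fewest pairs of lines. Its level was 352, 356, 370 and 345 CPM in MCA-943 tumors W-2G, a-1D, a-1G and a-R. The lowest, median and highest values were 315, 348 and 398 CPM in MCA-970, 88.1, 163 and 278 CPM in MCA-969, and 81.6, 145 and 169 CPM in MCA-948, and MCA-972 spanned 204 to 321 CPM. Only 3 of 10 differences were called: MCA-943 over MCA-948 by 1.37 ± 0.19, MCA-970 over MCA-948 by 1.33 ± 0.17 and MCA-943 over MCA-969 by 1.03 ± 0.19 (SE; adjusted p at most 3.1e-05). The last was under the fold required without MCA-969 W-2G (0.92), a-2D (1.00) or a-R (0.98) or MCA-943 a-1G (0.97), and was 0.48 with an adjusted p of 0.32 with the run as covariate. MCA-970 exceeded MCA-969 by 0.99, just under the fold required, and by 1.01, called, with DESeq2. The difference was 1.02 to 1.12, called, without MCA-969 W-R, W-1D or W-2D or MCA-970 W-1D or a-2G. MCA-972 exceeded MCA-948 by 0.96, and by 1.08 without MCA-972 a-1 and 1.01 and 1.00 without MCA-948 W-2D and a-1G, each called. The 12 macrophage genes summed to 39.8 to 201 CPM in MCA-948, with a median of 117, and to medians of 37.1 CPM in MCA-969, 54.7 in MCA-972, 78.1 in MCA-970 and 85.1 in MCA-943. Of these genes, 10 were called lower in MCA-969 than in MCA-970 and 8 lower than in MCA-948, where 21.4% and 20.8% of all genes were called. In MCA-943, 4 were called higher than in MCA-969 (27.0% of all genes). None was called between MCA-948 and either MCA-943 (29.0%) or MCA-970 (29.4%). The part of macrophages in the Csf1 differences was not tested.

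Csf2 (chr11:54247271-54249667, minus strand), which drives granulocytes and macrophages and is scarce in resting cells, had low counts, from 5 to 634 per tumor. MCA-969 W-2D had 19.6 CPM and W-R 9.43 CPM, and the other 6 MCA-969 tumors 0.386 to 1.73 CPM. MCA-943 tumors W-2G, a-1D, a-1G and a-R had 1.52, 1.82, 3.82 and 3.67 CPM. Csf2 lay between 0.169 and 0.823 CPM in MCA-948, 0.672 and 1.51 CPM in MCA-970, and 0.469 and 1.64 CPM in MCA-972. Every MCA-943 tumor was above every MCA-948 and MCA-970 tumor, and MCA-943 exceeded MCA-948 by 2.29 ± 0.71 (SE, adjusted p = 0.0061). The calls for MCA-969 over MCA-948, MCA-970 and MCA-972, of 2.97, 1.92 and 2.42, rested on W-2D and W-R. Without both they were 0.80, -0.25 and 0.25 and none was called, and without W-2D alone they were 1.96, 0.91 and 1.41 and the first was called. MCA-943 against MCA-969 turned from -0.68 (adjusted p = 0.42) to 1.49 (adjusted p = 0.0011) without both. MCA-943 over MCA-972, 1.74 with an adjusted p of 0.087, was called at 1.74 without MCA-969 W-2D and at 2.33 without MCA-972 a-R.

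Csf3 (chr11:98701263-98703629, plus strand), the granulocyte factor, had the largest difference of all and separated the non-sensitive lines from each other. MCA-943 tumors W-2G, a-1D, a-1G and a-R had 0.305, 0.296, 1.78 and 0.367 CPM. The lowest, median and highest values were 4.37, 17.7 and 74.1 CPM in MCA-969, 3.94, 6.47 and 17.95 CPM in MCA-970 and 0.522, 2.36 and 6.69 CPM in MCA-948, and MCA-972 spanned 1.44 to 3.002 CPM. No MCA-943 tumor reached the lowest MCA-969 or MCA-970 tumor. Csf3 was lower in MCA-943 than in MCA-969 by 5.37 ± 0.86 (SE, adjusted p = 4.6e-06) and than in MCA-970 by 3.64 ± 0.83 (SE, adjusted p = 0.00041). It was higher in MCA-969 than in MCA-948 by 3.17 ± 0.54 and than in MCA-972 by 3.57 ± 0.75 (SE; adjusted p at most 0.00021). The difference of MCA-943 from MCA-948, -2.20 (adjusted p = 0.016), was -1.97, -1.93 and -1.98 and not called without MCA-943 W-2G, a-1D or a-R, and that from MCA-972, -1.80 (adjusted p = 0.076), was -2.82 and called without MCA-943 a-1G. With DESeq2 the difference from MCA-972 was -1.78 and called, at an adjusted p of 0.048. MCA-970 over MCA-948 (1.44) was lost without MCA-970 W-2D (1.05), and MCA-970 over MCA-972 (1.84) without MCA-972 a-1G, 2G or a-R or MCA-970 W-2D (1.67, 1.74, 1.98 and 1.45). With the run as covariate these were 1.78 (adjusted p = 0.12) and 1.21 (adjusted p = 0.44), and neither was called. Neutrophil genes, which include the Csf3 receptor and were carried in MCA-970 by S100a8, summed to at most 12.5 CPM in any tumor. They summed to 0.196 to 1.87 CPM in MCA-943 and 2.72 to 12.5 CPM in MCA-970. In MCA-969, the line with the highest mean of Csf3, the sum was 0.995 to 5.69 CPM. It was 0.275 to 3.04 CPM in MCA-948 and 2.10 to 4.30 CPM in MCA-972.

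Several of these cytokines varied together around their line means when all lines were pooled. Deviations of log2 CPM from the line mean were compared for the 45 pairs of cytokines over 30 tumors, with 100000 two-sided permutations within lines and Benjamini-Hochberg adjustment over the pairs. By library number MCA-969 had 6 tumors in the first run and 2 in the second, and MCA-948 had 2 in the second and 6 in the third. By sample index MCA-969 would instead divide by the letter of its titles. A shift of a library or run within a line would enter these correlations, and its part was not tested. Lif and Il11 were closest, with r = 0.878 (permutation adjusted p = 0.00068) and rho = 0.774 (adjusted p = 0.00072), and r was 0.769 without MCA-969 W-R and W-2D, the 2 tumors farthest from the median of Lif. Lif and Csf2 had r = 0.854 (permutation adjusted p = 0.0011) and 0.748 without the same 2 tumors, with rho = 0.733 (adjusted p = 0.00056). Il6 and Il11 had r = 0.727 (permutation adjusted p = 0.00045) and rho = 0.756 (adjusted p = 0.00056), and r was 0.720 without the 2 tumors farthest in Il6. In all, 11 pairs had an adjusted p under 0.05 for r, all with positive r, and 9 of the 10 pairs among Il6, Lif, Il11, Csf1 and Csf2 were among them. This group was read from the same correlations, so its count is a description and not a test. For 3 of these 11 pairs rho did not pass: Il11 with Csf1 (adjusted p = 0.54), Lif with Csf1 (0.086) and Csf2 with Csf3 (0.058), whose r of 0.615, 0.686 and 0.555 was 0.267, 0.531 and 0.376 without the 2 farthest tumors. Within single lines Lif and Il11 had r = 0.976 in MCA-969 (exact p = 0.00017, adjusted p = 0.023 over 135 tests), 0.866 in MCA-970 (exact p = 0.053, adjusted p = 0.29) and 0.368 in MCA-948 (exact p = 0.37, adjusted p = 0.77). Of the 135 tests only that 1 in MCA-969 had an adjusted p under 0.05. In MCA-969, MCA-948 and MCA-970, r was 0.798, 0.205 and 0.902 for Il6 with Lif and 0.878, 0.221 and -0.081 for Il11 with Csf1. Neither Il15 nor Il18 was in a pair past the threshold.

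The promoters of Lif, Il11, Il6 and Csf2 are shown because these cytokines moved together and promoters are where inducible factors bind, and Csf1, whose relations were less stable, is given by its matches only. Each is the 250 bases before the RefSeq start on GRCm38.p6, written 5′ to 3′ on the gene's strand, with matches to the AP-1 motif TGANTCA or to the NF-kB consensus in capitals, searched on both strands. The promoter table had entries for 7 of the 10 cytokines, and for Il15, Tslp and Csf3 none was printed. For Il11 the second of 2 starts is shown.
Lif, chr11:4257318-4257567, plus strand: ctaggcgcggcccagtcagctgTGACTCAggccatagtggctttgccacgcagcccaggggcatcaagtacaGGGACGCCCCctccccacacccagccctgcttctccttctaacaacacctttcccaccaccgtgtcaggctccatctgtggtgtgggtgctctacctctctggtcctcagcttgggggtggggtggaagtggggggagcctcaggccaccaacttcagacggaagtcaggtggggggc
Il11, chr7:4778142-4778391, minus strand: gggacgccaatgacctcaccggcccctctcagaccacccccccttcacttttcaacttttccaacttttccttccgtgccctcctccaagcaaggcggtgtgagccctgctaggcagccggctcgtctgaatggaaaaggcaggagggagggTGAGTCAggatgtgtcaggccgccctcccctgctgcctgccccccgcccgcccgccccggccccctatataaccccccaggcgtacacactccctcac
Il6, chr5:30012864-30013113, plus strand: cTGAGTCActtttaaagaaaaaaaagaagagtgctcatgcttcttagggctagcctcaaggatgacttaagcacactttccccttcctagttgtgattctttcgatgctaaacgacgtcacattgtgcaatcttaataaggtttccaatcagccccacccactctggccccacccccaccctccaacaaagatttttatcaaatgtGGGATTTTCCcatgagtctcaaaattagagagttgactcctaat
Csf2, chr11:54249900-54250149, minus strand: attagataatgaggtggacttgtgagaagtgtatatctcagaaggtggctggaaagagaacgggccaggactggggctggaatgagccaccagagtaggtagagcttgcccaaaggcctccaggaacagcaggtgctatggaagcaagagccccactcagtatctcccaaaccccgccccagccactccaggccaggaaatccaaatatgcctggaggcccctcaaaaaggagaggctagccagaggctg
Lif held 1 AP-1 match, beginning at base -228 from the start, and 1 NF-kB match at -178. Il11 held 1 AP-1 match at -98, and its first start had none of either. Il6 held 1 AP-1 match at -249 and 1 NF-kB match at -44, and Csf2 held neither in this window. The RefSeq start of Csf2 lies upstream of the GENCODE start that its coordinates above give, and the bases between these starts were not searched. Over all 32851 promoters in the table, 6.75% held an AP-1 match and 7.25% an NF-kB match. Of the other cytokines, Csf1 had 1 NF-kB match at -154 and Il18 and both starts of Il33 had none. A match is a run of letters and was not tested as a binding site.

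Compared per length, in CPM per kilobase of the gene length in the deposited table, Csf1 was the most abundant of the 10 in 4 lines, at 67.4 ± 1.98 (SD, n = 4) in MCA-943, 65.6 ± 5.80 (SD, n = 6) in MCA-970, 50.9 ± 9.27 (SD, n = 4) in MCA-972 and 26.1 ± 5.59 (SD, n = 8) in MCA-948. In MCA-969 Il11 came first at 66.5 ± 68.5 CPM per kilobase (SD, n = 8), ahead of Csf1 at 32.9 ± 11.2 (SD, n = 8), an order that the spread between tumors does not settle. The second place was held by Il33 in MCA-943 (51.6 ± 11.3, SD, n = 4) and MCA-972 (11.2 ± 2.58, SD, n = 4), by Lif in MCA-970 (26.1 ± 8.67, SD, n = 6) and by Il11 in MCA-948 (3.10 ± 1.25, SD, n = 8), there within the spread of Il33 (2.78 ± 1.45, SD, n = 8). Il15 followed Il33 in MCA-943 at 18.3 CPM per kilobase and last in MCA-969 at 1.19. Tslp was last in MCA-948 at 0.241 CPM per kilobase and level with Csf2 in MCA-970, at 1.42 and 1.43, Csf3 in MCA-943 at 0.485, and Csf2 in MCA-972 at 1.01.

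**Figure D5:**
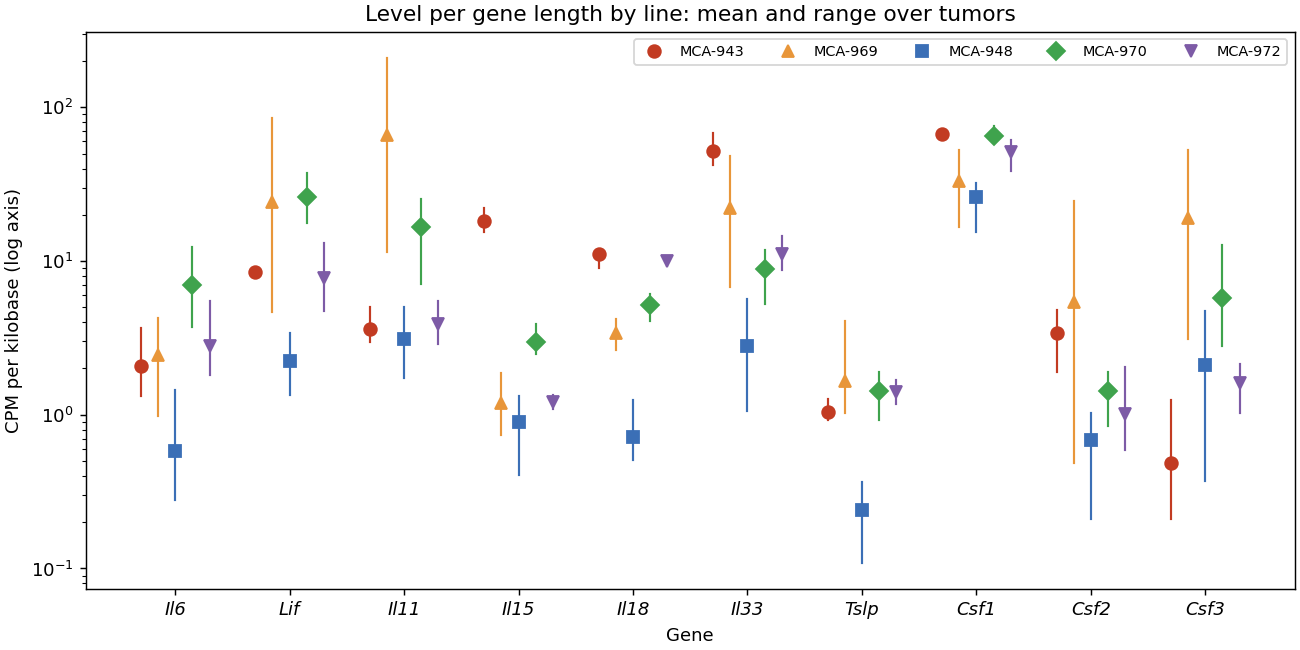
Level per gene length in CPM per kilobase on a log axis, as the mean (symbol) and the range over tumors (vertical line) of each line. Csf1 is high in every line, the range of MCA-969 is the widest for Lif, Il11, Csf2 and Csf3, and Il15 is high in MCA-943 only.

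Non-sensitive lines were then set against sensitive lines, the comparison the study was built on. The number of cytokines called was 9 for MCA-943 against MCA-948, 7 against MCA-970 (27.3% of all genes) and 2, Il15 and Il33, against MCA-972 (25.6%). MCA-969 had 8 called when set beside MCA-948, 6 beside MCA-970 (21.4%) and 5 beside MCA-972 (20.6%). None of the 10 was called with 1 sign in all 6. At 148 of 16862 genes, or 0.878%, such calls were rare among all genes too, and a count of 0 among 10 genes says nothing particular about the cytokines. No other cytokine reached the 5 comparisons of Il33: Csf2 was called higher in 4, Tslp in 2 and Csf1 in 1, and the other 6 were called in both directions. The 2 non-sensitive lines differed from each other in 7 cytokines (27.0% of all genes), 4 higher and 3 lower in MCA-943. Between sensitive lines, MCA-970 exceeded MCA-972 in 5 cytokines (17.6% of all genes), with 3 called without MCA-972 a-1 or a-1G and 2 without MCA-972 2G. With the run as covariate none of these 5 was called, and Il18 (-1.25) and Il33 (-1.52) were called lower in MCA-970. Over the means of the 5 lines, Il33 was higher in the non-sensitive lines by 2.33 and Csf2 by 1.45 on the log2 scale, each with an exact permutation p of 0.1, the smallest that 2 lines against 3 allow, and an adjusted p of 0.5 over the 10 cytokines. The Csf2 value rested on MCA-969 W-R and W-2D, without which MCA-969 lay below MCA-970 by 0.25. For the other 8 the exact permutation p was 0.5 or more, with differences from -0.04 to 1.64.

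The letter of the title was compared within the 4 lines that have both letters, over 26 tumors. MCA-972 has no tumor with the letter W, so its differences from other lines are not balanced by letter. None of the 10 cytokines was called by edgeR, and of all genes 0.305% were. Csf3 came nearest, higher in tumors with the letter W by 1.26 ± 0.38 on the log2 scale (SE, unadjusted p = 0.003, adjusted p = 0.28), and it was the only 1 with an unadjusted p under 0.05. DESeq2 also called none. The difference of this effect between MCA-948, MCA-969 and MCA-970, over 22 tumors, passed the threshold for no cytokine and for 0.0781% of all genes. Il6, Lif, Il33 and Csf2 had unadjusted p-values between 0.0056 and 0.028 and adjusted p-values between 0.245 and 0.331. In MCA-969 these 4 were higher with the letter W, by 1.09 ± 0.50, 1.83 ± 0.76, 1.15 ± 0.36 and 3.10 ± 0.95 (SE). The values were -0.95, -0.28, -0.80 and -0.18 in MCA-948 and -0.81, -0.29, 0.26 and -0.20 in MCA-970. None was called within a line, and the effect over all lines averages these directions.

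Genes around these cytokines were counted from fixed lists. Of the 18 receptor chains, 6 were called higher and 0 lower in MCA-943 than in MCA-969, where 27.0% of all genes were called, and 3 higher and 4 lower in MCA-969 than in MCA-948, where 20.8% were. Over the 10 pairs of lines between 5 and 7 of them were called. Il6st, the gp130 chain, had means between 243 and 390 CPM and was called in no pair of lines. A STAT3 list held 10 genes: Stat3, Socs3, Socs1, Bcl3, Junb, Cebpb, Cebpd, Pim1, Myc and Osmr. Of these, 6 were called higher and 1 lower in MCA-943 than in MCA-948, and 6 higher and 0 lower in MCA-969 than in MCA-948. In MCA-948, 1 was higher and 6 lower than in MCA-970, and 1 higher and 3 lower than in MCA-972. The shares of all genes called were 29.0%, 20.8%, 29.4% and 26.8%. Whether these counts are tied to the low Il6 and Lif of MCA-948 was not tested. Of 14 NF-kB and mRNA decay genes, 5 were called higher in MCA-943 and 4 in MCA-969 than in MCA-948, with none lower, and 3 were higher and 3 lower in MCA-948 than in MCA-972. The shares of all genes called in these pairs were 29.0%, 20.8% and 26.8%. Of 9 processing and decoy genes of the interleukin 1 family, 1, the inhibitory receptor Sigirr, was called the same way in all 6 comparisons, with means of 19.9 and 12.6 CPM in MCA-943 and MCA-969 and 6.26, 1.25 and 0.489 CPM in MCA-948, MCA-970 and MCA-972. So was the T cell gene Trbc2, at 21.7 and 15.6 CPM against 0.0377, 0.457 and 5.04 CPM. Among 5 tested of 7 other gp130 cytokines and 11 of 21 other leukocyte cytokines, none was.

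For each cytokine the 1 gene closest in pattern was taken by Pearson's r of log2 CPM over the 30 tumors among 16861 genes, as a description in which tumors of 1 line share their level. Ifi204, an interferon-inducible gene, was closest to Il15 (r = 0.961), Fam49a to Il18 (0.967), Guca1a to Il33 (0.933) and Aebp1 to Tslp (0.928). Bdkrb1, the inducible bradykinin receptor, was closest to both Il6 (0.903) and Lif (0.926), and Gng4 to Il11 (0.917). Gpr180 was closest to Csf1 (0.905), Errfi1 to Csf2 (0.821) and Slpi, a protease inhibitor, to Csf3 (0.899).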

How the data were processed

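RNA was measured in CD45-depleted cell suspensions of 30 tumors from 5 MCA-induced lines. The authors aligned reads with STAR 2.5.3a to GRCm38, and the submitters' processing notes name Picard and featureCounts 1.5.2. The column headers name UMI-processed alignments with duplicates removed. The strand setting and annotation release are not given in the sources used here. The deposited values were raw counts for 48440 genes, with a gene length for each. Totals per tumor are given in the report, and a count of 3, the limit that a count of 0 allows, was 0.0781 to 0.0887 CPM on average by line. Limits and intervals cover counting error and the spread between tumors only.

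Lines were taken from the labels and their sensitivity from the study. The 10 cytokines, the gene lists and the tests were chosen with earlier results of these data known. GENCODE M21 named 48058 genes. Counts were normalized by TMM, filtered with filterByExpr by line and tested with edgeR 4.0.16 (robust quasi-likelihood fit, R 4.3.3), with the line as factor. Log2 CPM used a prior count of 2. DESeq2 1.42.0, which the study's methods name, was an alternative. Others were DESeq2 size factors, 2 other filters, 2 other fold thresholds, the run or a leukocyte score (mean log2 CPM of 8 genes) as covariate, fits within runs, separate fits, the title code as a block, leaving out the 2 tumors of opposite label, and leaving out each tumor. Leaving out MCA-969 W-R and W-2D together was added after seeing the data. Named genes were the 10 cytokines, the nearest gene by pattern of each, list genes called in all 6 comparisons, 4 receptors, and Ptprc and Adgre1. Il18bp was chosen after its values were seen. Promoter sequences were from RefSeq. The line tests were tested on simulated data before use. Correlations used numpy 2.4.6 and scipy 1.17.1.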

Additional observations from a re-analysis of the deposited data

Results flagged for a closer look

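Within each line, the highest and lowest tumor of each cytokine were compared with the rest on the log2 scale, in 50 groups of 4 to 8 tumors, of which chance alone would mark about 1 in 20. Csf3 in MCA-943 a-1G, at 1.78 CPM, lay far above the other 3 tumors of the line at 0.296 to 0.367 CPM. Il18 in the same tumor, at 6.42 CPM, lay below the others at 8.30 to 8.43 CPM. Il6 in MCA-972 a-R, at 13.3 CPM, lay above the others at 4.38 to 5.06 CPM. The cause of these 3 values was not tested.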

How the results depend on the processing

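Of the 63 called differences, 39 were called with the same sign under every alternative other than the fold thresholds, and 24 were lost under at least 1. DESeq2, its size factors and a mean of at least 1 CPM kept all 63, and no filter on low counts kept 60. DESeq2 also called Csf1 for MCA-969 against MCA-970 (-1.01, adjusted p = 8.5e-08) and Csf3 for MCA-943 against MCA-972 (-1.78, adjusted p = 0.048). Its size factors also gave the first of these calls. The run as covariate lost 16, the replicate block 11, the leukocyte score 6 and separate fits 4, and the causes were not tested. Requiring a log2 fold change of 2 left 3 cytokines for MCA-943 against MCA-969, 4 against MCA-970, 0 for MCA-969 against MCA-970, 3 against MCA-972, 5 for MCA-948 against MCA-970 and 1 for MCA-970 against MCA-972. With no fold threshold 1 cytokine, Il33, was called in all 6 comparisons. The run as covariate gave 4 for MCA-943 against MCA-970 and 2 for MCA-970 against MCA-972, neither of them among the 5 called without it, and no filter gave 3 for the latter. For MCA-969 against MCA-972 the count was 3 within the first run, with the leukocyte score, with separate fits, and without MCA-969 W-R and W-2D together. Separate fits, and the fit without these 2 tumors, gave 4 for MCA-943 against MCA-972. Without them Csf2 turned to 1.49 for MCA-943 against MCA-969 and to -0.25 for MCA-969 against MCA-970. Leaving out single tumors gave 0 to 1 cytokine in all 6 comparisons and 2 to 6 for MCA-970 against MCA-972, the sixth being Il18, lower in MCA-970. Letter and code of the titles did not pair the tumors, since only 8 of 29 same-code pairs correlated above 0.1 (range -0.430 to 0.411), and with them as a replicate block the counts were 3 between MCA-969 and MCA-972 and 2 between MCA-970 and MCA-972 (Il15, and Il18 in the opposite direction). With the longest transcript in place of the deposited gene length, 11 of 50 levels per length moved by more than 1 SD. No 2 tumors of a line agreed within sampling noise. Counts under 20 in single tumors limit Tslp, Csf2, Il18 and Csf3 at their lowest levels.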
